A study of Mus musculus with 6 samples.

Results

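The YAP/TAZ and TEAD pathway was followed through 10 genes, taken by gene name from a count table of 54532 genes. They are the coactivator genes Yap1 and Wwtr1, the DNA-binding partner genes Tead1, Tead2, Tead3 and Tead4, the kinase genes Lats1 and Lats2, and the target and feedback genes Ankrd1 and Amotl2. Each name matched 1 row, and all 10 genes passed the filter on low counts that left 13472 genes for testing. RNA was sequenced from cells labelled Glu-tag, a mouse enteroendocrine line, with small intestine given as the tissue. In 3 libraries the cells were labelled sh-IRS2 with the genotype IRS2 Knockdown, a stable line per the series text, and in the other 3 libraries they were labelled sh-control with the genotype WT. No treatment or time is given in the labels, and the sources used here name neither the hairpin sequences nor whether either line is a single clone. The titles number the libraries 1 to 3 within each label, so each number holds 1 library of each label, and no source used here says what a number stands for.

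YAP, encoded by Yap1, and TAZ, encoded by Wwtr1, are transcriptional coactivators that do not bind DNA themselves and act mainly through the TEAD proteins. When the Hippo kinase cascade is active, LATS1 and LATS2 phosphorylate YAP and TAZ, which are then held in the cytoplasm or degraded. When it is inactive, for instance in spread cells under tension or after serum stimulation, the coactivators enter the nucleus and switch on genes such as Ankrd1, Ccn1 and Ccn2. Lats2 and Amotl2 are also targets, and their products restrain YAP and TAZ in return. Much of this control acts on the proteins, which RNA counts do not measure.

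Labels and libraries were checked first. Irs2 had 31.4, 28.6 and 38.7 CPM (library-scaled counts, each gene's count set against the library total) in the libraries labelled shIRS2 numbered 1, 2 and 3, against 31.6, 22.7 and 34.3 CPM in the shControl libraries. Its level was no lower under the shIRS2 label (log2 fold change 0.17, SE 0.16, edgeR adjusted p 1.00, exact two-sided permutation p 0.6 where 0.1 is the smallest possible), so groups are named by their labels and directions are those of the labels. Of 12 enteroendocrine markers, Pax6 alone averaged more than 1 CPM, and the defining markers Gcg, Pcsk1, Chga and Neurod1 were absent, with 0 counts in all 6 libraries, which allows up to 0.0295 CPM each. Library totals ran from 14991019 to 19790073 counts. The 2 libraries numbered 2 stood apart: an edgeR F test over the 3 numbers called 2638 of 13472 genes, which is 19.6%, whereas number 3 against number 1 called 32, which is 0.238%.

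Among the 10 genes, the libraries labelled shIRS2 overlapped with the shControl libraries, while the libraries numbered 2 differed from those numbered 1 and 3. Ankrd1 and Amotl2 rose most in number 2, to 3.08 and 1.78 times the mean of numbers 1 and 3 in the edgeR fit. Lats2, Tead4 and Tead1 rose by less, Tead3, Tead2 and Wwtr1 fell, and Yap1 and Lats1 did not pass the test. The contrast of number 2 with the other numbers was chosen with earlier results of these data known. Bulk RNA cannot tell fewer cells of a type apart from less RNA per cell.

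**Figure D1:**
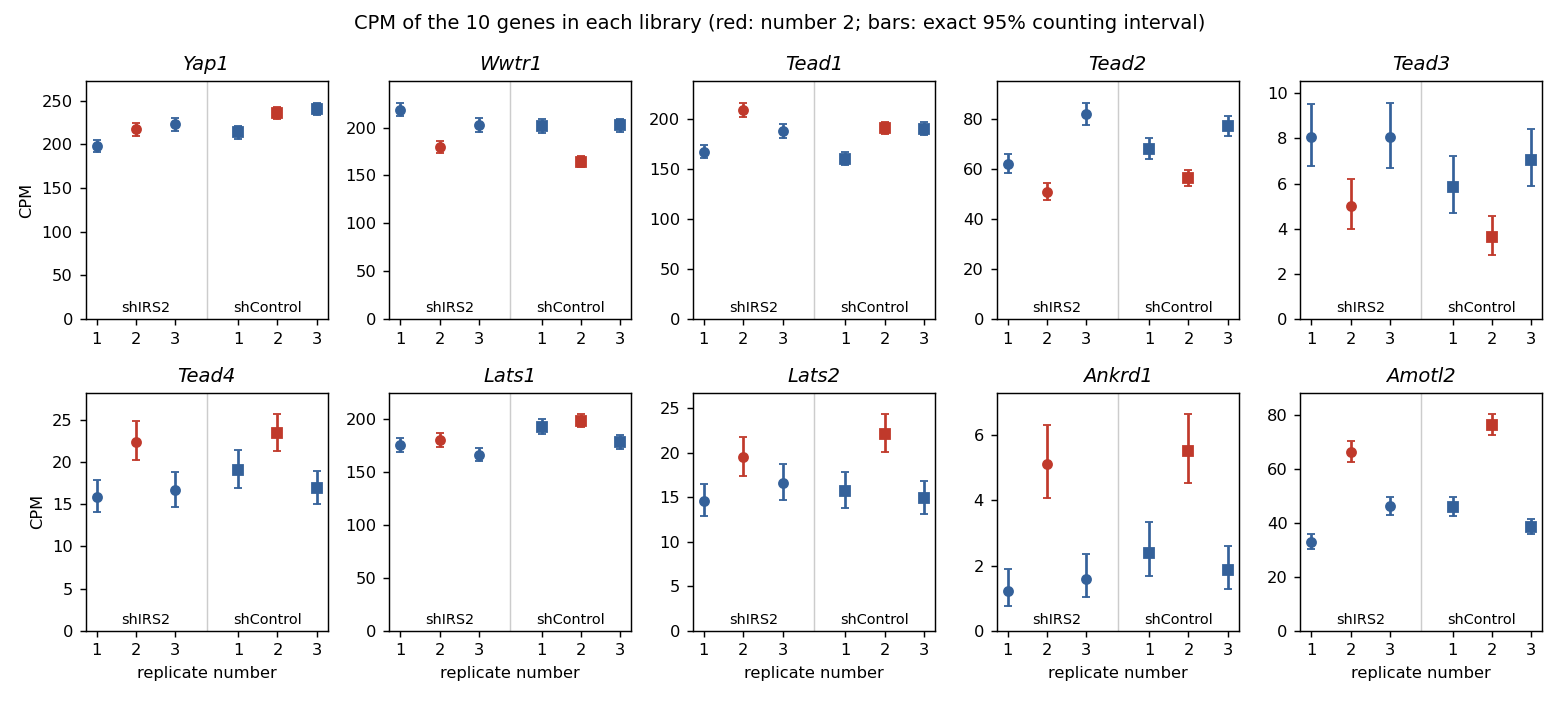
CPM of each of the 10 genes in the 6 libraries, with the 3 libraries labelled shIRS2 (circles) left of the 3 shControl libraries (squares) and replicate numbers on the x axis. Red marks number 2, and bars are exact 95% binomial intervals that cover counting error only. For Ankrd1 both red points, at 5.11 and 5.51 CPM, lie above the other 4, which run from 1.24 to 2.40 CPM.

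Both coactivator genes were well expressed. Per length, Wwtr1 had the highest level of the 10 genes, at 40.6 ± 3.75 FPKM (fragments scaled to gene length and library total, mean ± SD, n = 6), and its lowest library lay above the highest library of every other member. Yap1 had 23.8 ± 1.73 FPKM, within the spread of Lats1 at 24.9 ± 1.63 FPKM (n = 6 each).

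Yap1 (ENSMUSG00000053110, mm10 chr9:7931999-8004596, minus strand) had 198, 217 and 223 CPM in the libraries labelled shIRS2 numbered 1, 2 and 3, against 214, 236 and 240.4 CPM in the shControl libraries. The library labelled shIRS2 was the lower one in each numbered pair, while the 2 groups overlapped. No source pairs the numbers, and number 3 of shIRS2 at 223 CPM was above number 1 of shControl at 214 CPM. The differences within pairs 1, 2 and 3 were -0.11, -0.12 and -0.11 on the log2(CPM + 1) scale. Between the labels the log2 difference was -0.10 (SE 0.09, 95% interval -0.30 to 0.10), and blocking on the replicate number gave -0.10 (SE 0.06, interval -0.22 to 0.02). Yap1 in number 2 lay inside the range of the other libraries, with a log2 difference from the mean of numbers 1 and 3 of 0.08 (SE 0.06, interval -0.05 to 0.21).

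Wwtr1 (ENSMUSG00000027803, mm10 chr3:57455649-57575910, minus strand) had 219, 179 and 203 CPM in the libraries labelled shIRS2 numbered 1, 2 and 3, against 202, 164 and 202 CPM in the shControl libraries. The hairpin groups overlapped, and both libraries numbered 2 were below all 4 others. The log2 difference of number 2 was -0.23 (SE 0.06, edgeR adjusted p 0.0162). The ratio of Wwtr1 to Yap1 in FPKM was 1.60 in the library labelled shIRS2 numbered 2 and 1.35 in the shControl library numbered 2, against 1.63 to 2.14 in the other 4 libraries. The sum of both genes was 61.9 and 60.3 FPKM in number 2, against 63.8 to 67.7 FPKM in the other 4.

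TEAD proteins bring the coactivators to DNA, and all 4 genes of the family were expressed. Per length, Tead2 at 13.7 ± 2.40 FPKM and Tead1 at 13.5 ± 1.46 FPKM could not be ranked, since their ranges overlapped. Tead4 had 5.28 ± 0.935 FPKM and Tead3 had 0.931 ± 0.259 FPKM, the lowest mean of the 10 genes (n = 6 each).

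Tead1 (ENSMUSG00000055320, mm10 chr7:112679318-112906807, plus strand) had 167, 209 and 188 CPM in the libraries labelled shIRS2 numbered 1, 2 and 3, against 159.8, 190.35 and 190.05 CPM in the shControl libraries. Both libraries numbered 2 were above all 4 others, although the shControl libraries numbered 2 and 3 were nearly level. The log2 difference of number 2 was 0.21 (SE 0.06, edgeR adjusted p 0.0250). Against number 1 alone it was 0.32 (SE 0.07, edgeR adjusted p 0.00941), and against number 3 alone it was 0.10 (SE 0.07), with an edgeR adjusted p of 0.340.

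Tead4 (ENSMUSG00000030353, mm10 chr6:128224288-128300823, minus strand), the member needed for the outer layer of the early mouse embryo, had 15.9, 22.4 and 16.6 CPM in the libraries labelled shIRS2 numbered 1, 2 and 3, against 19.0, 23.4 and 16.9 CPM in the shControl libraries. Number 2 was the highest in both groups, by 0.45 on the log2 scale (SE 0.10, edgeR adjusted p 0.00603).

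Tead2 (ENSMUSG00000030796, mm10 chr7:45215753-45233644, plus strand), which is prominent in early embryos, had 62.0, 50.8 and 81.8 CPM in the libraries labelled shIRS2 numbered 1, 2 and 3, against 68.0, 56.2 and 77.0 CPM in the shControl libraries. Number 2 was the lowest and number 3 the highest in both groups. The log2 difference of number 2 from the mean of the others was -0.39 (SE 0.07, edgeR adjusted p 0.00181).

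Tead3 (ENSMUSG00000002249, mm10 chr17:28331671-28350817, minus strand) had 8.07, 4.99 and 8.05 CPM in the libraries labelled shIRS2 numbered 1, 2 and 3, against 5.87, 3.64 and 7.06 CPM in the shControl libraries. These rest on 137, 82 and 126 counts against 88, 72 and 125 counts. Number 2 was again the lowest in both groups, with a log2 difference of -0.73 (SE 0.17, edgeR adjusted p 0.00673). Tead3 was also higher in the library labelled shIRS2 of each pair, at 0.37 on the log2 scale (SE 0.27). Blocking on the number left 0.37 (SE 0.15, unadjusted p 0.0301, edgeR adjusted p 0.483).

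The make-up of the family therefore differed by number, while its sum did not stand apart. Tead1 took 46.7% and 42.7% of the summed Tead FPKM in number 2, against 36.6% to 39.9% in the other 4 libraries. Tead2 took 32.2% and 35.8% in number 2, against 41.9% to 46.5% in the others. Tead4 took 18.9% and 19.8%, against 12.6% to 16.4%. The sum over the 4 genes was 33.5 and 33.1 FPKM in number 2, inside the 30.7 to 36.5 FPKM of the others. These shares are a description with no test of their own.

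**Figure D2:**
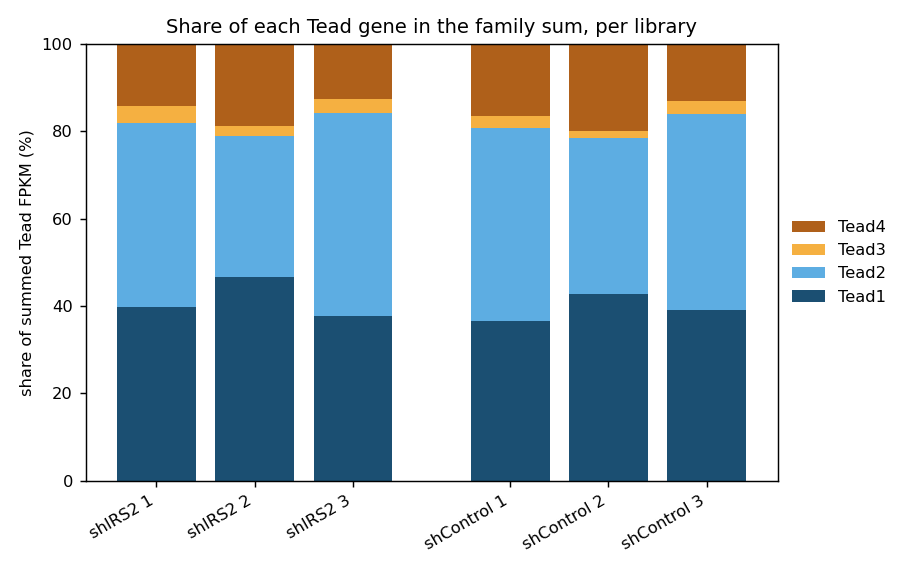
Stacked bars give the percentage of the summed FPKM of Tead1 to Tead4 that each gene took in each library, with the libraries labelled shIRS2 left of the shControl libraries. Number 2 has the largest Tead1 and Tead4 segments and the smallest Tead2 segment within each group, for instance 32.2% for Tead2 in the library labelled shIRS2 numbered 2 against 41.9% and 46.5% in the other libraries of that group.

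The kinase genes differed in level and in behaviour. Lats1 (ENSMUSG00000040021, mm10 chr10:7681214-7716460, plus strand) had 176, 180.6 and 166 CPM in the libraries labelled shIRS2 numbered 1, 2 and 3, against 193, 198 and 178 CPM in the shControl libraries. It was the lower one in the library labelled shIRS2 of each pair, but the groups overlapped, with a log2 fold change of -0.11 (SE 0.09, interval -0.30 to 0.08). Number 2 differed by 0.12 on the log2 scale (SE 0.06, edgeR adjusted p 0.178), and the interval of that difference was -0.01 to 0.25.

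Lats2 (ENSMUSG00000021959, mm10 chr14:57689662-57758388, minus strand), the kinase gene that YAP induces as feedback, had 14.6, 19.5 and 16.6 CPM in the libraries labelled shIRS2 numbered 1, 2 and 3, against 15.7, 22.1 and 14.9 CPM in the shControl libraries. Both libraries numbered 2 were above all 4 others. The log2 difference was 0.46 (SE 0.11, edgeR adjusted p 0.00822). Per length its level was 2.47 ± 0.451 FPKM, against 24.9 ± 1.63 FPKM for Lats1 (n = 6 each). Pseudogene and snoRNA rows that overlap Lats2 on the opposite strand held 58 and 25 counts in all libraries, against 1766 counts for Lats2.

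Ankrd1 and Amotl2 are the members read most often as outputs of YAP and TAZ. Ankrd1 (ENSMUSG00000024803, mm10 chr19:36111965-36119844, minus strand), which encodes an ankyrin repeat protein first known from heart muscle, had 1.24, 5.11 and 1.60 CPM in the libraries labelled shIRS2 numbered 1, 2 and 3, against 2.40, 5.51 and 1.86 CPM in the shControl libraries. The counts were 21, 84 and 25 against 36, 109 and 33. The exact 95% binomial intervals of the libraries numbered 2 were 4.08 to 6.33 CPM for shIRS2 and 4.52 to 6.64 CPM for shControl, and the highest upper bound among the other 4 was 3.32 CPM. Number 2 was thus above the other libraries in both groups by more than counting error. The log2 difference was 1.63 (SE 0.23, interval 1.14 to 2.11, edgeR adjusted p 0.000188).

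Amotl2 (ENSMUSG00000032531, mm10 chr9:102716672-102733418, plus strand), whose product binds YAP and TAZ at cell junctions, had 33.0, 66.4 and 46.2 CPM in the libraries labelled shIRS2 numbered 1, 2 and 3, against 46.0, 76.3 and 38.6 CPM in the shControl libraries. Both libraries numbered 2 were again the highest. The log2 difference was 0.84 (SE 0.11, interval 0.59 to 1.08, edgeR adjusted p 0.000322). In the pairs numbered 1, 2 and 3 the library labelled shIRS2 differed from its control by -0.46, -0.20 and 0.25 on the log2(CPM + 1) scale, so the hairpin direction was not the same in every pair.

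Promoter sequences are shown because TEAD proteins bind the 6-base motif GGAATG, read as CATTCC on the other strand, and Ankrd1 and Amotl2 are known targets. Members with a match went both ways in number 2, and no binding was measured. Sequences come from RefSeq windows of build GRCm38.p6, the same assembly as mm10, with 250 bases before and 50 after an annotated start. The motif was searched on both strands, and the 2 forms cannot overlap each other. Of all 32851 windows, 14.7% held it and 1.33% held it at least 2 times. Windows were found for 8 of the 10 members, of which 6 had a match in at least 1 window. By gene, 4481 of all 27025 with a window had a match. The 8 members had 12 windows, of which 8 held a match. Members with several annotated starts have more chances, and both windows of Wwtr1 hold the same site. Of the other targets, 14 of 22 genes had a window and 5 of these a match. Of 30 other Hippo regulators described below, 24 had a window and 9 of these a match. The Ankrd1 window held 2 matches, starting 210 and 123 bases before the start, and the Amotl2 window held 1, starting 65 bases before it. The 250 bases before the start are given on the strand of the gene, with matches in capitals, for Ankrd1 at chr19:36119845-36120094, minus strand, and for Amotl2 at chr9:102717554-102717803, plus strand.
Ankrd1: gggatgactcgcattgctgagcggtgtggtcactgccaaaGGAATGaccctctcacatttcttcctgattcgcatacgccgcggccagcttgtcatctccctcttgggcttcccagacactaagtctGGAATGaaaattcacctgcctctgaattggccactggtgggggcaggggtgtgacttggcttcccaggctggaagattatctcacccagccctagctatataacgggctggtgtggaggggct
Amotl2: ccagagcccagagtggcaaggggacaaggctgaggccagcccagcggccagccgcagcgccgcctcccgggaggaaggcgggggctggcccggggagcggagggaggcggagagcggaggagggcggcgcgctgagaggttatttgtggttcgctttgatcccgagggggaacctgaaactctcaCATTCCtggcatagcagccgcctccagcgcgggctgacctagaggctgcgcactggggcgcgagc

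Matches also occurred at genes that did not rise in number 2. Short stretches with 10 bases on each side of the match are given for Yap1 (chr9:8004722-8004747, minus strand), which did not pass the test, for Wwtr1 (chr3:57576031-57576056, minus strand) and Tead3 (chr17:28350972-28350997, minus strand), which fell, and for Lats2 (chr14:57746104-57746129, minus strand), which rose. They are followed by 3 target genes described below, Ccn1 (chr3:145650073-145650098, minus strand), Crim1 (chr17:78200159-78200184, plus strand) and the second of 2 matches of Ajuba (chr14:54577810-54577835, minus strand). Tead3, which fell the most among the members, held 1 match in one window and 3 in another, and the first of these windows is shown. The 3 targets shown were all higher in number 2, though Ccn1 did not pass the test. Targets without a match in their window went both ways. Tgfb2 was higher in number 2 (log2 difference 0.75, SE 0.19, edgeR adjusted p 0.0102), and F3 was lower (-0.32, SE 0.09, edgeR adjusted p 0.0197). Both were named after their values were seen, and a link between match and direction was not tested. Capitals mark the motif. A match is a run of letters and was not tested for binding.
Yap1: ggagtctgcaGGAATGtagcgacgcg
Wwtr1: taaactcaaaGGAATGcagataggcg
Tead3: cgacgagcgaGGAATGgggtgcgcgg
Lats2: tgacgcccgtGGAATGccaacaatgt
Ccn1: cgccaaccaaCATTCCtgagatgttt
Crim1: ggcgggggggGGAATGaggtaggatg
Ajuba: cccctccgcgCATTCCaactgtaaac

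**Figure D3:**
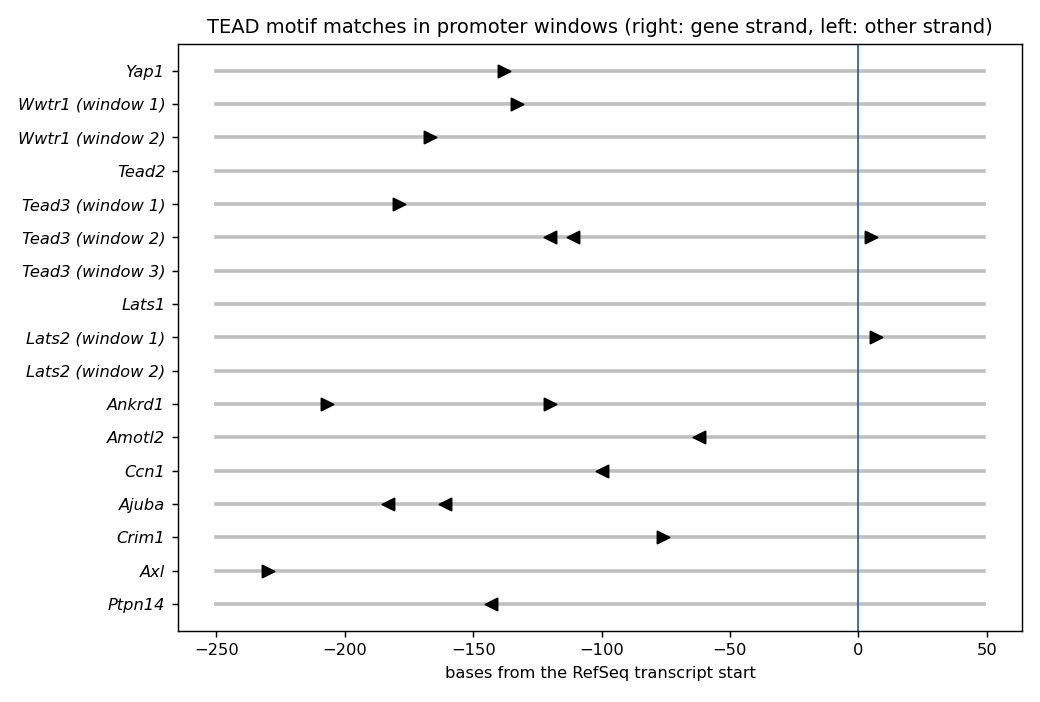
Each grey line is a promoter window from 250 bases before to 49 bases after a RefSeq transcript start, which is drawn as the blue line, for the 8 members with a window and 5 other targets. Triangles mark motif matches, pointing right on the strand of the gene and left on the other strand. The Ankrd1 line carries 2 matches and the Amotl2 line 1, and Yap1 and Wwtr1 carry matches too.

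Between the hairpin labels, none of the 10 genes passed the test. The edgeR test called 0 of the 10 members and 0 of 13472 genes, which is 0%, with 0 members and 262 genes, or 1.94%, at an unadjusted p under 0.05. DESeq2 also called 0 genes, with 207 at that unadjusted p. Every member had an edgeR adjusted p of 1.00. In CPM the groups overlapped for all 10 members, where 6.52% of the tested genes did not overlap. Log2 fold changes ran from -0.30 for Ankrd1 (SE 0.58, interval -1.62 to 1.01) to 0.37 for Tead3. With the replicate block, 0 members and 1 gene, or 0.00742%, were called. At an unadjusted p under 0.05 the edgeR block fit gave 1 member and 1234 of 13472 genes, so the 262 above depends on leaving the number out. Intervals were widest for Ankrd1 and Amotl2, and Amotl2 stood at -0.13 (SE 0.30, interval -0.82 to 0.55). Blocking on the number narrowed them, to -0.83 to 0.16 around -0.34 for Ankrd1 and to -0.36 to 0.11 around -0.13 for Amotl2. Taking like numbers as pairs 1, 2 and 3, which no source states, Ankrd1 was lower each time in the library labelled shIRS2. Its differences were -0.60, -0.09 and -0.14 on the log2(CPM + 1) scale, and Tead4, also lower, had -0.24, -0.06 and -0.02. Yap1 and Lats1 were lower each time too, whereas Wwtr1, at 0.12, 0.12 and 0.0019, and Tead3 were higher each time. How many of all tested genes kept the same sign in every pair was not counted. When single libraries were left out, 4 members kept the sign of their log2 fold change, which were Yap1, Wwtr1, Tead3 and Lats1, and 6 turned at least once. For Ankrd1 and Amotl2 it was 0.35 and 0.23 without the shControl library numbered 2. These fits had no number term, so in that setting only the shIRS2 label held a library numbered 2.

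**Figure D4:**
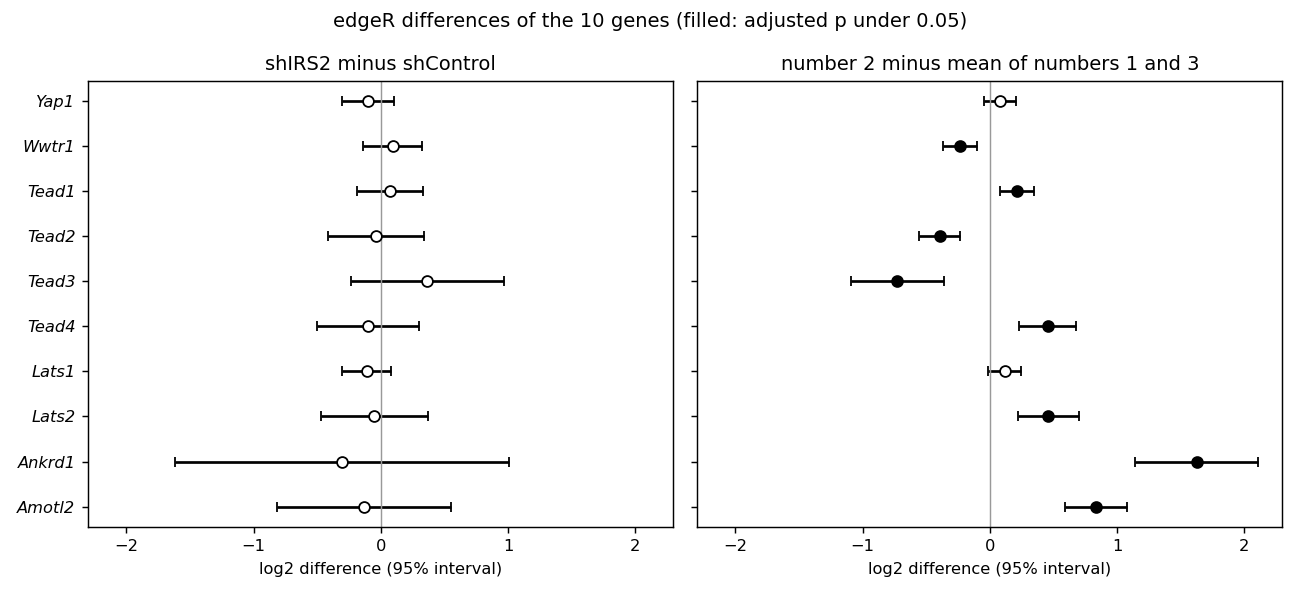
Points are edgeR log2 differences of the 10 genes with 95% intervals, for the libraries labelled shIRS2 minus shControl on the left and for number 2 minus the mean of numbers 1 and 3 on the right, and filled points have an adjusted p under 0.05. On the left every interval crosses 0, and on the right 8 are filled, from -0.73 for Tead3 to 1.63 for Ankrd1.

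Between the numbers, the edgeR F test called 8 of the 10 members, beside 19.6% of all tested genes. In the contrast of number 2 with the mean of the others, 5 members were higher, where 11.6% of tested genes were, and 3 were lower, where 11.9% were, so 8 differed where 23.5% of tested genes did. The 2 libraries numbered 2 were above all 4 others in CPM for 5 members, against 16.7% of tested genes, and below them for 3, against 23.4%, which puts 8 outside the range of the others, against 40.1%. The median log2 difference of the members was 0.17, against -0.00 over all tested genes. Number 3 against number 1 called 0 members. Leaving out both libraries numbered 2, an alternative added after the data were seen, left 37 genes and 0 members called between numbers 3 and 1.

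These calls rest on 2 libraries. Without the shControl library numbered 2 the F test called 3 members, and without the library labelled shIRS2 numbered 2 it also called 3, in both cases Ankrd1, Amotl2 and Tead2. The DESeq2 likelihood ratio test called 4, adding Tead1 to these 3. In the contrast of number 2, Ankrd1 kept an edgeR or DESeq2 adjusted p of at most 0.00481 and a log2 difference of 1.41 to 1.88 over all 10 alternatives, and Amotl2 at most 0.000652 and 0.70 to 0.98. The other 6 members called in it kept their direction in all 10 alternatives but lost the call in some. For Wwtr1, Tead1, Tead3 and Tead4 it was lost when 1 of the libraries numbered 2 was left out, whichever it was. Tead1 also lost it without the library labelled shIRS2 numbered 3 (adjusted p 0.0638) and Tead3 in DESeq2 (0.0507). It was lost for Lats2 without that of shControl (adjusted p 0.325) and for Tead2 without that labelled shIRS2 (0.131).

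Other YAP/TAZ target genes, 22 genes from a published signature and common readouts besides the members, were followed in the same contrast. Of 20 tested, the F test called 8, which is 40.0%, beside 19.6% of all tested genes. In the contrast 7 were higher and 2 lower, where 11.6% and 11.9% of all tested genes were, with a median log2 difference of 0.22. Without Ajuba and Ptpn14, which the regulator list also holds, the F test called 6 of 18, and in the contrast 5 were higher and 2 lower, with a median of 0.18. Ajuba, which encodes a LIM protein that restrains LATS, had 67.5 and 68.9 CPM in the libraries labelled shIRS2 and shControl numbered 2, against 39.5 to 52.8 CPM in the other 4, a log2 difference of 0.54 (SE 0.08, edgeR adjusted p 0.000221). Crim1, which encodes a transmembrane protein that binds growth factors of the BMP family, had 44.6 and 41.9 CPM in number 2, against 24.8 to 34.4 CPM, a log2 difference of 0.58 (SE 0.08). Nuak2, which encodes an AMPK-related kinase, had 5.84 and 7.98 CPM in number 2, against 2.83 to 4.80 CPM, a log2 difference of 0.96 (SE 0.19). For these 3 genes number 2 lay above all other libraries in both groups. Of the 20 tested targets 11 did so, against 16.7% of all tested genes, and 2 lay below them, against 23.4%. Nuak2 lost the call without the shControl library numbered 2 (edgeR adjusted p 0.0768), and Ajuba and Crim1 kept it in all 10 alternatives.

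Smaller differences were seen at Axl and Ptpn14, with log2 differences of 0.27 (SE 0.06) and 0.23 (SE 0.06). Axl encodes a receptor tyrosine kinase and Ptpn14 a phosphatase that binds YAP. Without the library labelled shIRS2 numbered 2 or the shControl library numbered 2, neither passed the test. The 2 genes that passed the test downward were Arhgef17, a guanine nucleotide exchange factor gene, at -0.26 (SE 0.08), and F3, which encodes tissue factor and was named after its values were seen, at -0.32 (SE 0.09). Arhgef17 overlapped between the numbers in CPM and lost the call in 5 alternatives, with an edgeR adjusted p of 0.703 without the shControl library numbered 2. F3 lost it without either library numbered 2 (0.242 and 0.0988).

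The classical target Ccn1, listed as Cyr61, encodes a secreted matricellular protein. It had 33.1, 93.4 and 28.0 CPM in the libraries labelled shIRS2 numbered 1, 2 and 3, against 24.2, 64.9 and 41.2 CPM in the shControl libraries. Number 2 was the highest in both groups, at 2.53 times the others in the fit, but the spread was wide (log2 difference 1.34, SE 0.28) and the edgeR adjusted p was 0.0617, with 0.00274 in DESeq2. Gadd45a, a gene induced by DNA damage and stress that was named after its values were seen, went the other way. It had 11.7 and 8.03 CPM in the libraries labelled shIRS2 and shControl numbered 2, against 15.8 to 27.4 CPM in the other 4, at 0.494 times the others in the fit. Its log2 difference was -1.02 (SE 0.29), beyond that of any other gene of the list in this direction, and the edgeR adjusted p was 0.0612, with 0.0768 in DESeq2. Ccn2, listed as Ctgf and often named beside Ccn1, and Igfbp3 had 0 counts in all 6 libraries, which allows up to 0.0295 CPM each.

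**Figure D5:**
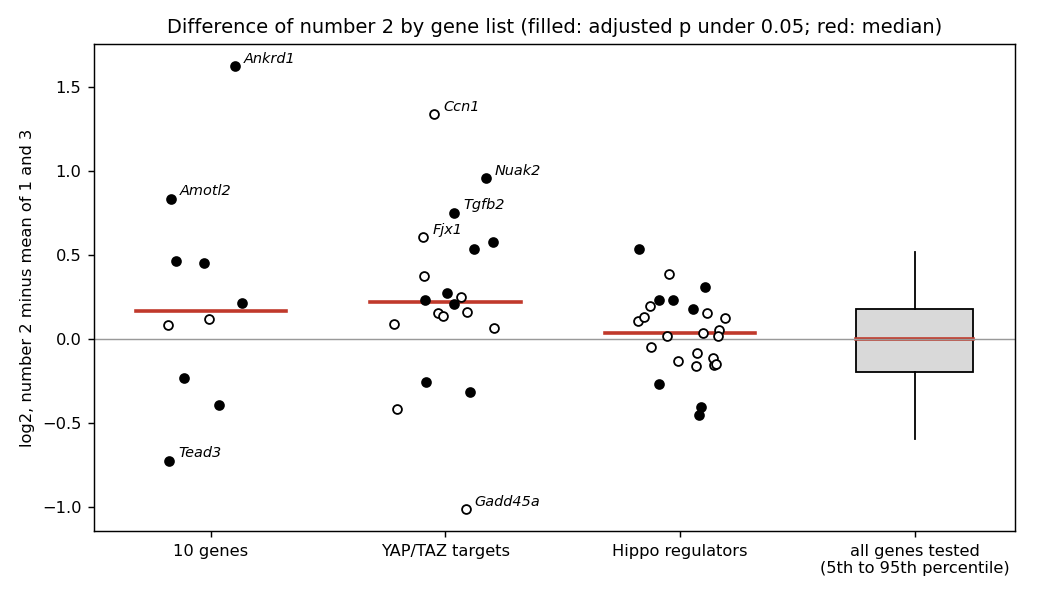
Points are the edgeR log2 differences of number 2 from the mean of numbers 1 and 3 for the tested genes of each list, filled where the adjusted p is under 0.05, with the list median in red and names beside points of more than 0.6 either way. The box on the right gives the 25th to 75th percentile of all genes tested and its whiskers the 5th to 95th, from -0.60 to 0.52. Ankrd1, Amotl2, Ccn1, Nuak2, Crim1 and Ajuba lie above that range, as do Tgfb2 and Fjx1, and Tead3 and Gadd45a lie below it. Tgfb2, Fjx1 and Gadd45a were named after their values were seen.

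Upstream of the coactivators, the 30 other Hippo regulators, which include Ajuba and Ptpn14 from the target list, were spread around 0. Of 25 tested, the F test called 7, which is 28.0%, beside 19.6% of all tested genes. In the contrast 5 were higher and 3 lower, where 11.6% and 11.9% of all tested genes were, with a median of 0.04. Both libraries numbered 2 were above all others in CPM for 6 and below them for 5, against 16.7% and 23.4% of all tested genes. The core kinase genes Stk3 and Stk4, which encode MST2 and MST1, had log2 differences of 0.02 (SE 0.10) and 0.10 (SE 0.07), and the adaptor genes Sav1, Mob1a and Mob1b had -0.09 (SE 0.07), 0.12 (SE 0.06) and 0.20 (SE 0.07). None of these 5 passed the test. Nf2, which encodes the upstream regulator merlin, rose slightly at 0.18 (SE 0.06, edgeR adjusted p 0.0432), as did Wwc1, the gene of the scaffold KIBRA, at 0.23 (SE 0.07, edgeR adjusted p 0.0319), and its relative Wwc2 at 0.31 (SE 0.07, edgeR adjusted p 0.00425).

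Within the angiomotin family the 3 genes did not all move the same way, though no test compared them. Amotl2 rose in number 2, whereas Amot fell by 0.45 on the log2 scale (SE 0.13, edgeR adjusted p 0.0236), with 9.19 and 7.93 CPM in number 2 against 9.88 to 13.1 CPM in the other 4. Amotl1 went the same way as Amot, at -0.11 (SE 0.06), and did not pass. It had 210 and 223 CPM in number 2, below the 229 to 245 CPM of the other 4. Outside that family, Stk38, a kinase gene related to Lats1, fell by 0.27 on the log2 scale (SE 0.07, edgeR adjusted p 0.0113). Scrib, a polarity gene, passed the F test (adjusted p 0.0210) but not the contrast of number 2, at -0.15 (SE 0.06). The regulators Nf2, Wwc1, Wwc2, Amot and Stk38 lost the call in the contrast when either library numbered 2 was left out, with edgeR adjusted p-values of 0.0895 to 0.504. Vgll4, whose product competes with YAP for TEAD, had -0.14 (SE 0.08). Fat4, Vgll1 and Vgll2 had 0 counts in all libraries, Wtip had 1 and Vgll3 had 2.

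Between the hairpin labels no gene of either list passed the test. The edgeR test called 0 of 25 regulators and 0 of 20 targets, and the median log2 fold changes were 0.01 and 0.01. At an unadjusted p under 0.05 there were 1 regulator and 2 targets, beside 1.94% of all tested genes. With the replicate block there were 3 and 2, beside 1234 of 13472 genes. In CPM the groups did not overlap for 1 regulator and 2 targets, beside 6.52% of all tested genes. The smallest p-values belonged to Wwc1, at 75.8, 89.1 and 83.9 CPM in the libraries labelled shIRS2 against 97.7, 112 and 92.4 CPM in the shControl libraries (log2 fold change -0.27, SE 0.11), and to Map4k4, a kinase gene acting on LATS, at 0.25 (SE 0.11). Among targets they belonged to Ccdc80, at 1.04 (SE 0.46) and under 1 CPM in every library, and to the ectonucleotidase gene Nt5e, at -0.38 (SE 0.17). All 4 had edgeR adjusted p-values of 1.00.

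For Ankrd1, Amotl2 and Yap1, the 3 genes with the nearest profiles were picked out, so distances below the median follow from the choice. Likeness was the root mean square distance between log2 CPM values centred over the 6 libraries, among 10114 candidate genes for Ankrd1 and 10113 for Amotl2 and Yap1. Mfsd2a, a lipid transporter gene, was nearest to Ankrd1 at 0.128, followed by Gpr155 and Plscr2 at 0.187 and 0.197, where the median gene was at 0.704. Podxl, which encodes the cell-surface sialomucin podocalyxin, was nearest to Amotl2 at 0.0844, followed by Grwd1 at 0.0871 and Tnfrsf12a, the receptor gene of TWEAK, at 0.107, where the median was 0.438. Tnfrsf12a had 89.96 and 102 CPM in number 2, against 46.0 to 58.4 CPM in the other 4 libraries. Ppic, Farp1 and Agk were nearest to Yap1, at 0.0272 to 0.0312, where the median was 0.157. The SD of the member itself over the 6 libraries was 0.751 for Ankrd1, 0.456 for Amotl2 and 0.100 for Yap1. Distances are therefore not comparable between members, and those of Yap1 are small beside a profile that varied little.

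Markers of other cell types were set beside the number 2 result. The 8 fibroblast markers summed to 849.7 and 629 CPM in the libraries labelled shIRS2 and shControl numbered 2, inside or below the 654 to 989 CPM of the other 4, and Col3a1 made up most of the sum. Within them Pdgfra fell in number 2, to 46.5 and 35.0 CPM against 61.1 to 72.1 CPM, and Pdgfrb rose, with 46.1 and 51.8 CPM against 35.0 to 43.4 CPM. Pdgfra kept its call in all 10 alternatives, and Pdgfrb lost it without either library numbered 2 (edgeR adjusted p 0.261 and 0.0924). The 5 endothelial, 5 smooth muscle and 6 immune markers each summed to at most 3.36 CPM in every library. The 12 enteroendocrine markers summed to 21.1 and 22.4 CPM in number 2, against 24.3 to 28.3 CPM, nearly all of it Pax6. Irs2 itself was lower in number 2, at -0.38 on the log2 scale (SE 0.10, edgeR adjusted p 0.0107), and lost that call without the shControl library numbered 2 (0.411). The part of these values in the member differences was not tested.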

How the data were processed

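RNA from 6 libraries was sequenced as paired ends of 150 bp after poly(A) selection, with strand marked by dUTP and an RNA integrity number above 7, per the labels' protocols. The build named by the submitters' processing notes is mm10. For the aligner and the counter with its strand setting, nothing is given in the sources used here, so overlapping and antisense genes are uncertain. The authors deposited raw counts per gene and, in a second table, FPKM values. These equal the count per listed gene length and per a library total that differs from the sum of counts. It was 0.985 and 0.993 times that sum in the libraries labelled shIRS2 and shControl numbered 2, and 1.006 to 1.023 times it in the others. The FPKM sums compared between libraries carry this difference. Columns beginning NC were read as sh-control and those beginning S as sh-IRS2 from the names alone. The number of columns of sample values left unused was 0.

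Counts were tested in R 4.3.3 with edgeR 4.0.16: filterByExpr by group, TMM scaling (factors 0.983 to 1.02), quasi-likelihood tests with robust dispersions, 2-sided, Benjamini-Hochberg over all 13472 genes, threshold 0.05. The hairpin fit had the group as its only term. The number fit had number and group. DESeq2 1.42.0, other size factors, no filter, the block and leaving out libraries were alternatives. Tests were checked on simulated data. The hairpin simulation held no difference between the numbers, unlike these data, so it cannot show how that test behaves here. FPKM values served to compare levels between genes and to form sums, ratios and shares of genes per library, without a test. CPM uses the sum of all counts, and log2(CPM + 1) pair differences use a pseudocount of 1, likeness one of 0.5.

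Deviations from the group means correlated at 0.225, 0.691 and 0.355 for libraries numbered 1, 2 and 3 alike, each above the limit of 0.1 set for taking numbers as pairs. Unlike numbers 1 and 3 correlated at 0.248 and 0.255, above pair 1, so the data set number 2 apart but do not tell numbers 1 and 3 apart, and the pairing is only a hint from the data. The main hairpin fit left the number out because no source states what a number marks, and the block was an alternative. No label says that numbers share a culture or day, so p-values cover only how these samples vary, and some of that may be technical. Members and lists were chosen with earlier results of these data known. Named list genes were those with the smallest p-values (6 per list for numbers, 4 for hairpins) plus core components; 1 gene named by this rule is not reported here. Intervals and floors of 3 counts cover counting error only.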

Additional observations from a re-analysis of the deposited data

Results flagged for a closer look

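Ccdc80, a secreted matrix protein gene in the target list, moved in opposite ways in the 2 groups: number 2 was below numbers 1 and 3 among the libraries labelled shIRS2, at 0.670 against 0.706 and 0.958 CPM, and above them among the shControl libraries, at 0.606 against 0.267 and 0.226 CPM. Its pooled log2 difference for number 2 was 0.37, the difference between the groups was not tested, and levels this low carry wide counting intervals.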

How the results depend on the processing

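Between the hairpin labels, the number of genes called was 1 with the replicate block and 6 without a filter on low counts, against 0, and the number of members called was 0 in every alternative run. The block changed no call of a member. Leaving out single libraries turned the sign of 7 uncalled hairpin differences, whose ranges were -0.020 to 0.15 for Tead1, -0.23 to 0.10 for Tead2, -0.28 to 0.055 for Tead4, -0.18 to 0.17 for Lats2, -1.22 to 0.35 for Ankrd1, -0.44 to 0.23 for Amotl2 and -0.74 to 0.046 for Nuak2. Those fits had no number term, so leaving out 1 library numbered 2 left number 2 under 1 label only. Without both libraries numbered 2, added after the data were seen, Lats2 stood at 0.039. Irs2 kept a positive difference throughout. Between the numbers, leaving out single libraries gave 798 to 3774 genes, 3 to 8 members, 2 to 5 members higher and 0 to 3 lower in number 2, the low ends being without the shControl library numbered 2 for genes and members higher, without that labelled shIRS2 for members lower, and without either for members. This leaves that number with 1 library assumed to vary like the others. DESeq2 called 1584 genes and 4 members in place of 2638 and 8, and without both libraries numbered 2 the counts were 37 and 0. The cause of the DESeq2 difference was not tested. Over genes and alternatives, contrasts of number 2 kept the same side of the threshold 298 times, lost the call 47 times, gained it 12 times and turned sign 3 times, all 3 for the uncalled Stk3, which ranged from -0.070 to 0.12 without single libraries. Depth limits Ankrd1, with 21 to 109 counts per library, and Tead3.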
